A study of Mus musculus with 9 samples.

Results

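The genes described here are 9 factors of the primitive endoderm: the transcription factors Gata4, Gata6, Sox7, Sox17 and Foxa2, the growth factor receptor Pdgfra, and the endocytic genes Dab2, Amn and Cubn. They were chosen by symbol from the 24411 genes of the deposited tables, and all 9 were found there. RNA was measured in mouse embryonic stem (ES) cells of the EB5 line, with 3 libraries each of Zfp352/Zfp353-DKO cells (Zfp352 and Zfp353 both deleted by CRISPR-Cas9, in which a nuclease is directed to a chosen site by a guide RNA), Zfp352-KO cells (Zfp352 deleted the same way) and Parental cells (neither gene deleted). All 3 genotypes share the EB5 background, which comes from the male E14tg2a line (129Ola) and carries an IRES-BSD-pA cassette in one Oct3/4 allele. The cells were grown on gelatin in medium with fetal calf serum and leukemia inhibitory factor. Whether the 3 libraries of a genotype are separate cultures or clones is not stated in the labels. The p-values therefore reflect the spread of these libraries alone, and that spread may be technical.

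The primitive endoderm is the layer of the blastocyst that lines the inner cell mass and later forms the visceral and parietal endoderm of the yolk sac. FGF signalling from neighbouring epiblast cells, where NANOG is high, favours GATA6, and GATA6 acts upstream of the other endoderm regulators. Visceral endoderm is known for its uptake of maternal nutrients by large endocytic receptors. ES cells correspond to the epiblast, and in serum cultures a small and variable share of cells can switch towards primitive endoderm.

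Each library held between 16599004 and 22044820 expected counts. The targeted gene Zfp352 (chromosome 4, 90218820 to 90225687, GRCm38.p6) was lower in every edited library than in any Parental one, in the direction of the labels, with 1 to 3 expected counts in Zfp352/Zfp353-DKO, 3 to 10 in Zfp352-KO and 41 to 52 in Parental libraries. Zfp353 was not analysed here. The summed level of 6 ES cell markers (Pou5f1, Nanog, Sox2, Zfp42, Esrrb and Klf4) was 3370 to 3450 TPM (transcript abundance scaled for length and depth) in Zfp352/Zfp353-DKO, 3330 to 3420 in Zfp352-KO and 3280 to 3380 in Parental libraries. The libraries were not alike in their relation of counts to transcript length. Spearman's rho between length and a library's scaled count less the mean of all libraries (log2, across 14300 genes) was 0.362 in Zfp352/Zfp353-DKO library 3 and between -0.127 and -0.0218 in the other libraries of that genotype, between -0.0655 and 0.391 in Zfp352-KO libraries, and between -0.402 and -0.0813 in Parental libraries.

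All 9 primitive endoderm factors were expressed at low levels. Their summed level was 8.00, 6.27 and 8.88 TPM in Zfp352/Zfp353-DKO libraries 1, 2 and 3, 8.07, 6.09 and 7.22 TPM in Zfp352-KO libraries, and 7.44, 6.76 and 8.49 TPM in Parental libraries. The 3 genotypes overlapped in this sum, and library 2 was the lowest in each. In bulk RNA, fewer cells of a type and less RNA per cell cannot be told apart, so these levels do not say whether a few cells or many held the transcripts.

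By mean TPM over the 9 libraries the order was Dab2, Gata4, Amn, Gata6, Sox7, Cubn, Pdgfra, Sox17 and Foxa2. Dab2 averaged 2.43 ± 0.547 TPM (SD, n = 9) and Gata4 1.61 ± 0.236 TPM, and Dab2 was above Gata4 in 8 of 9 libraries. Amn averaged 1.06 ± 0.368 TPM and Gata6 0.687 ± 0.355 TPM, with Amn above Gata6 in 7 libraries. Sox7 (0.443 ± 0.180 TPM), Cubn (0.401 ± 0.146 TPM) and Pdgfra (0.380 ± 0.0725 TPM) had close means. Sox7 was above Cubn in 7 of 9 libraries and Cubn was above Pdgfra in 5 of 9. Sox17 averaged 0.309 ± 0.131 TPM and Foxa2 0.154 ± 0.117 TPM. In the table as a whole, 45.7% of genes had a higher mean TPM than Dab2 and 64.3% had a higher one than Foxa2. Dab2 alone made up 23.6% to 38.6% of the members' summed TPM, and Gata4 a further 15.4% to 26.3%.

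**Figure D1:**
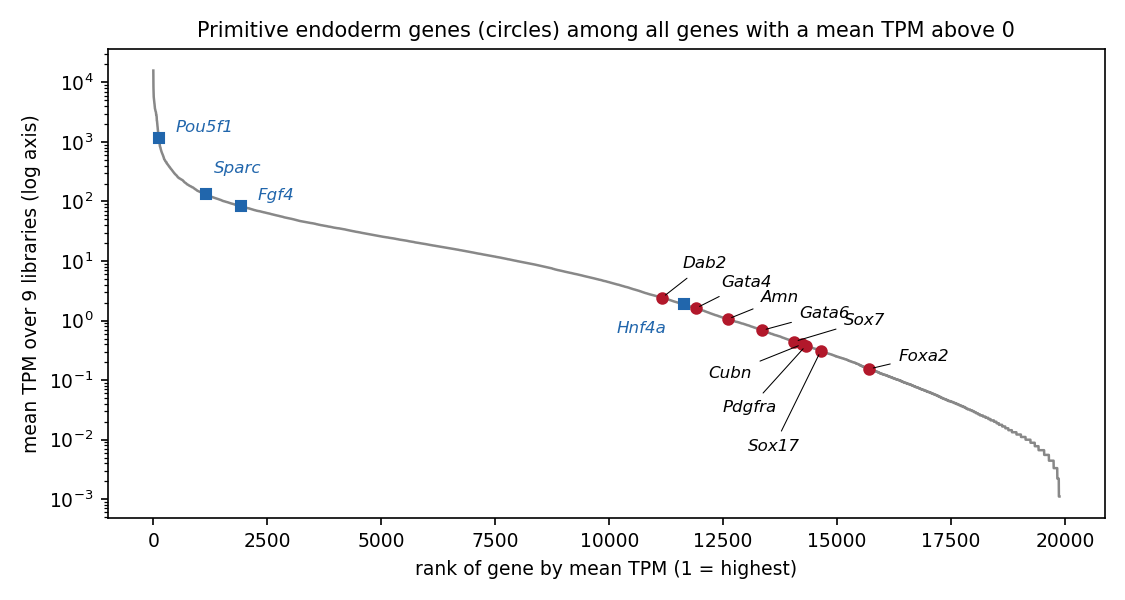
Mean level over the 9 libraries in TPM (log axis) of genes ordered from high to low, with the 9 primitive endoderm factors as red circles and Pou5f1, Fgf4, Sparc and Hnf4a as blue squares. The members run from 2.43 TPM for Dab2 down to 0.154 TPM for Foxa2, far below Pou5f1.

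Gata6 and Gata4 encode zinc finger transcription factors that drive ES cells towards primitive endoderm when expressed from a transgene. Gata4 had 1.96, 1.65 and 1.86 TPM in Zfp352/Zfp353-DKO libraries, 1.24, 1.47 and 1.72 TPM in Zfp352-KO libraries, and 1.55, 1.33 and 1.70 TPM in Parental libraries. The genotypes overlapped, and Zfp352/Zfp353-DKO libraries 1 and 3 held the highest values of all. Gata6 had 0.86, 0.55 and 0.86 TPM in Zfp352/Zfp353-DKO libraries, 1.5, 0.41 and 0.32 TPM in Zfp352-KO libraries, and 0.64, 0.50 and 0.54 TPM in Parental libraries. Zfp352-KO library 1 stood above the other 8 libraries for Gata6, and the other Zfp352-KO libraries were the lowest of the series.

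The SOXF factors SOX7 and SOX17 are HMG-box proteins that act with the GATA factors in extraembryonic endoderm. Sox7 had 0.27, 0.41 and 0.77 TPM in Zfp352/Zfp353-DKO libraries, 0.50, 0.37 and 0.20 TPM in Zfp352-KO libraries, and 0.47, 0.35 and 0.65 TPM in Parental libraries. Sox17 had 0.54, 0.30 and 0.19 TPM in Zfp352/Zfp353-DKO libraries, 0.36, 0.29 and 0.26 TPM in Zfp352-KO libraries, and 0.31, 0.09 and 0.44 TPM in Parental libraries. Neither gene separated the genotypes, and the lowest Sox17 library, Parental 2, rested on 4 counts. The estimated Sox17 transcript length, by which TPM is divided, was 4071 bases there and 3211 to 3288 bases in the other libraries. Sox7 lies on the same chromosome as Gata4, with 671993 bases between them (chromosome 14, Gata4 at 63198914 to 63271712 and Sox7 at 63943706 to 63950732).

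Foxa2, a forkhead factor of visceral and definitive endoderm (chromosome 2, 148042877 to 148046969), had the fewest reads of the 9. It had 3, 3 and 3 expected counts in Zfp352/Zfp353-DKO libraries, 6, 1 and 1 counts in Zfp352-KO libraries, and 0, 6 and 6 counts in Parental libraries. It did not pass the filter on low counts, and the genotypes overlapped. Two-sided exact permutation tests of log2(TPM + 0.1) gave differences of 0, -0.19 and 0.19 for Zfp352/Zfp353-DKO against Parental, Zfp352-KO against Parental and Zfp352/Zfp353-DKO against Zfp352-KO, with p = 1 in each, where 3 against 3 libraries cannot go below 0.1.

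Pdgfra, the receptor tyrosine kinase that marks early primitive endoderm (chromosome 5, 75151322 to 75198206), had 0.32, 0.42 and 0.38 TPM in Zfp352/Zfp353-DKO libraries, 0.49, 0.36 and 0.31 TPM in Zfp352-KO libraries, and 0.46, 0.27 and 0.41 TPM in Parental libraries. The group means lay within 0.373 to 0.387 TPM, closer together than the libraries of any genotype. Pdgfra is also expressed by fibroblast-type cells, whose markers are given below beside the lists.

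Dab2 encodes a clathrin adaptor that sorts endocytic receptors and lies downstream of GATA6 in mouse endoderm. RefSeq's promoter table (GRCm38.p6, from 250 bases before to 50 after the start) holds Dab2 windows at 2 start sites on chromosome 15, + strand. They are shown because Dab2 was the most abundant of the 9 genes and because its estimated transcript length differed between libraries. Capitals mark matches to the GATA letters searched for (AGATAA or TGATAA or AGATAG or TGATAG, both strands).
Dab2 window 1, chr15:6299539-6299838: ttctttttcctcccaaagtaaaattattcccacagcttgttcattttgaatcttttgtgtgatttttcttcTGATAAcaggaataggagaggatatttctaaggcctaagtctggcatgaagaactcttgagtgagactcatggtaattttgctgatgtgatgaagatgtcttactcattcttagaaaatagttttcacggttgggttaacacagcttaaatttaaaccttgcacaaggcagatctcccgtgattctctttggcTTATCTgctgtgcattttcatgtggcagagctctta
Dab2 window 2, chr15:6386498-6386797: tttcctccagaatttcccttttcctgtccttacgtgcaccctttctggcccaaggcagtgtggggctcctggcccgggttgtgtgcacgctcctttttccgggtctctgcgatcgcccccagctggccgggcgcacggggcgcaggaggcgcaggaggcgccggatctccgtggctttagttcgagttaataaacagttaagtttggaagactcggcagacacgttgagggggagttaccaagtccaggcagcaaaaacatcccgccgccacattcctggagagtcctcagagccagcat
The first window held 2 GATA matches, with first bases at -179 and 15 from the start, and had a GC content of 37.7%. The second held 0 and had a GC content of 59.3%, against a median of 52.7% over 32851 windows. GATA matches of this kind occurred in 29.8% of those windows, so a match is common and says nothing of binding. Windows for Foxa2, Pdgfra, Amn and Cubn were also in that table. In 1 of the 3 Foxa2 windows there were GATA letters and 2 matches to SOX letters (ACAAAG or ACAATG, in 28.6% of windows), and the Pdgfra window held 1 forkhead match (TGTTTAC or TATTTAC, in 6.54% of windows).

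Dab2 had 1.89, 1.66 and 3.43 TPM in Zfp352/Zfp353-DKO libraries, 2.52, 2.01 and 2.60 TPM in Zfp352-KO libraries, and 2.53, 2.26 and 2.94 TPM in Parental libraries. Zfp352/Zfp353-DKO libraries 1 and 2 were the lowest of the series and library 3 was the highest. The estimated transcript length of Dab2, by which TPM is divided, ran from 4064 to 4517 bases between libraries, whereas the expected counts do not depend on it. There were 87, 78 and 134 counts in Zfp352/Zfp353-DKO libraries, 98, 106 and 115 counts in Zfp352-KO libraries, and 125, 112 and 138 counts in Parental libraries.

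Amn and Cubn encode amnionless and cubilin, the membrane anchor and the large ligand-binding subunit of the cubam receptor, which takes up vitamin B12 bound to its carrier. Amn (chromosome 12, 111271096 to 111276426) had 1.67, 0.76 and 0.51 TPM in Zfp352/Zfp353-DKO libraries, 0.78, 0.84 and 1.29 TPM in Zfp352-KO libraries, and 1.24, 1.39 and 1.05 TPM in Parental libraries. Cubn (chromosome 2, 13276338 to 13491876) had 0.36, 0.38 and 0.73 TPM in Zfp352/Zfp353-DKO libraries, 0.34, 0.30 and 0.47 TPM in Zfp352-KO libraries, and 0.24, 0.31 and 0.48 TPM in Parental libraries. The highest and the lowest Amn level were both in Zfp352/Zfp353-DKO libraries, and Cubn was highest in library 3 of each genotype.

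**Figure D2:**
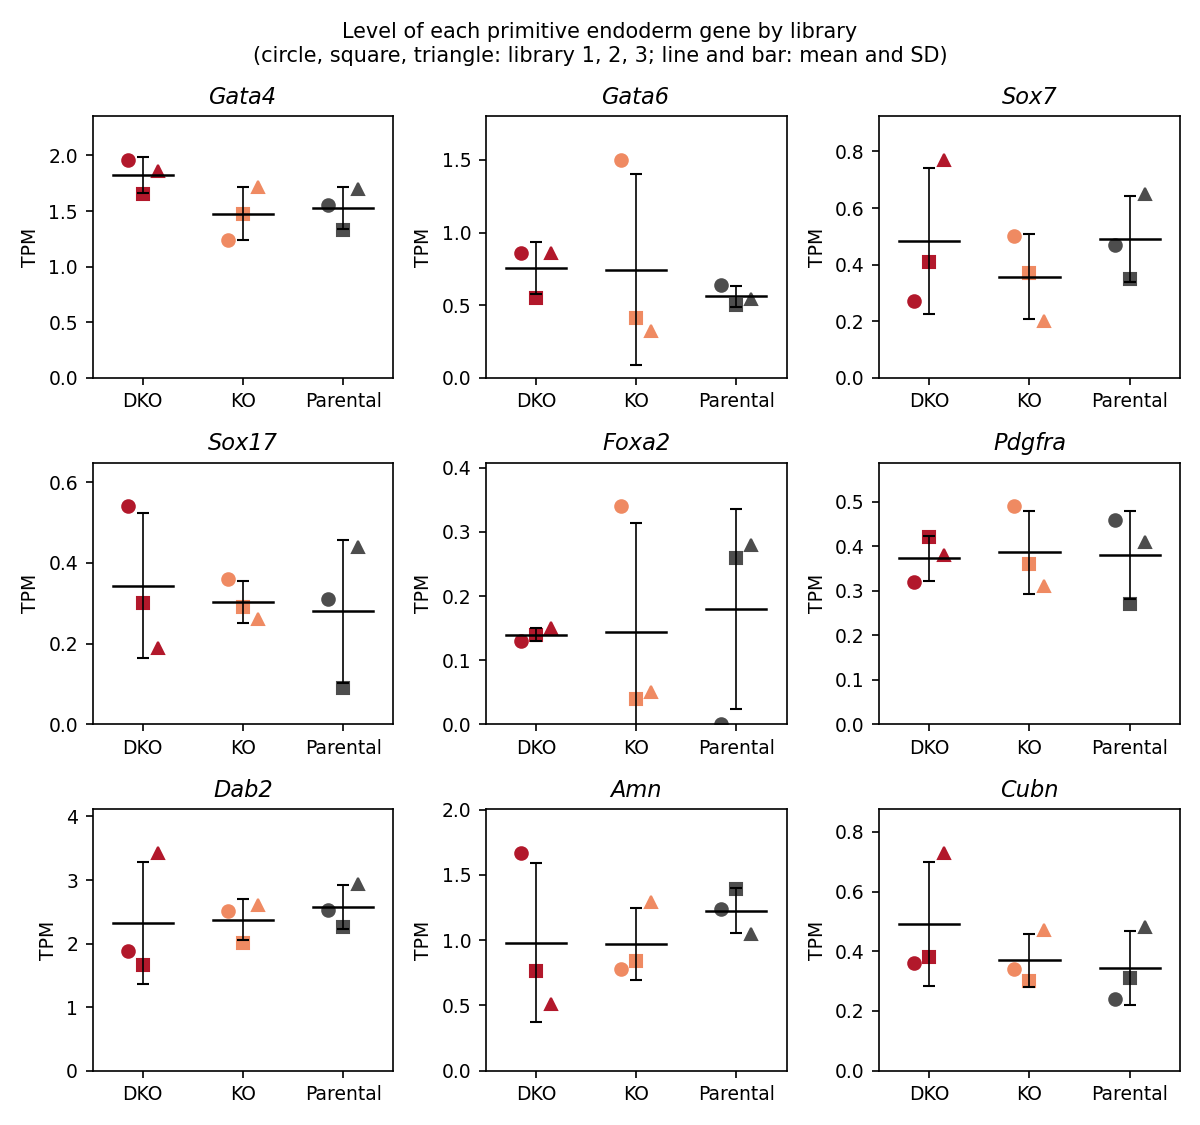
Level in TPM of each of the 9 genes in each library, in 1 panel per gene, with DKO standing for Zfp352/Zfp353-DKO and KO for Zfp352-KO; points are libraries and bars are the mean ± SD of 3. The genotypes overlap in every panel, and single libraries stand out for Gata6 (Zfp352-KO library 1, 1.5 TPM) and Dab2 (Zfp352/Zfp353-DKO library 3, 3.43 TPM).

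Loss of Zfp352 and Zfp353 together was not accompanied by a called change in any of the 8 primitive endoderm factors that could be tested across the table. In the quasi-likelihood test of edgeR, adjusted by Benjamini and Hochberg's method over all 14300 genes tested, 0 of the 8 members that passed the filter were called between Zfp352/Zfp353-DKO and Parental cells at an adjusted p under 0.05. Of all tested genes 8.47% were called, 3.65% higher and 4.82% lower. None of the 8 had an unadjusted p under 0.05 either, a level that 24.5% of all tested genes reached. With so few members, all at low counts, 0 of 8 does not show them to be steadier than other genes. The same holds for the comparisons below. DESeq2 and limma on log2 TPM also called 0. The members' log2 fold changes ran from -0.32 to 0.46 with a median of 0.08, against a median of 0 over all genes, and 4 lay above 0 and 4 below. In TPM, 0 of the 9 members had libraries that did not overlap between the groups, against 28.1% of tested genes in counts scaled to library size.

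Cubn had the largest positive difference, with a mean of 0.490 ± 0.208 TPM in Zfp352/Zfp353-DKO cells and 0.343 ± 0.123 TPM in Parental cells (SD, n = 3 each; edgeR log2 fold change 0.46 ± 0.28 (SE), 95% interval -0.11 to 1.04, adjusted p = 0.32). Without Zfp352/Zfp353-DKO library 3 the Cubn value was 0.10, and without Parental library 3 it was 0.76 (edgeR adjusted p = 0.14). Cubn has the longest transcript of the members (11325 bases), and with the trend on transcript length removed its value was 0.36 (edgeR adjusted p = 0.40). Gata4 differed by 0.22 ± 0.17 (edgeR, interval -0.13 to 0.58, adjusted p = 0.45) and Gata6 by 0.39 ± 0.42 (interval -0.48 to 1.26, adjusted p = 0.61). As a fold, the Gata4 interval spans 0.911 to 1.5 and that of Gata6 0.717 to 2.39. Sox17 (log2 fold change 0.27, interval -0.68 to 1.22), Sox7 (-0.07, -0.86 to 0.72) and Amn (-0.32, -1.08 to 0.44) had similarly wide intervals. Without Zfp352/Zfp353-DKO library 1 the Amn value was -0.98 (edgeR adjusted p = 0.12), Sox17 turned to -0.24 and Sox7 to 0.23. Without Zfp352/Zfp353-DKO library 3 the values were -0.02 for Amn, 0.56 for Sox17 and -0.52 for Sox7. Pdgfra differed by -0.05 (interval -0.60 to 0.50).

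Dab2 was not called with all libraries in the fit, but it was the only member called when 1 library was left out. Its level was 2.33 ± 0.962 TPM in Zfp352/Zfp353-DKO cells and 2.58 ± 0.342 TPM in Parental cells, and the edgeR log2 fold change was -0.25 ± 0.18 (interval -0.63 to 0.13, adjusted p = 0.42). Without Zfp352/Zfp353-DKO library 3, Dab2 was called lower, with a log2 fold change of -0.57 (edgeR adjusted p = 0.037, over 2 against 3 libraries). That fit called 686 genes over the whole table, and the library left out was the one highest for Dab2. The call therefore does not set Dab2 apart from other genes. Per 10000000 expected counts, Dab2 had 41.8, 40.4 and 72.9 in Zfp352/Zfp353-DKO libraries and 58.1, 54.8 and 71.2 in Parental libraries. The exact 95% counting interval of Zfp352/Zfp353-DKO library 3, 61.0 to 86.6, lay above those of library 1 (33.5 to 51.4) and library 2 (32.0 to 50.4). That library was also the one of its genotype with the strongest positive relation of counts to transcript length, and with the trend on length removed in every library the Dab2 value was -0.27 (edgeR adjusted p = 0.33).

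**Figure D3:**
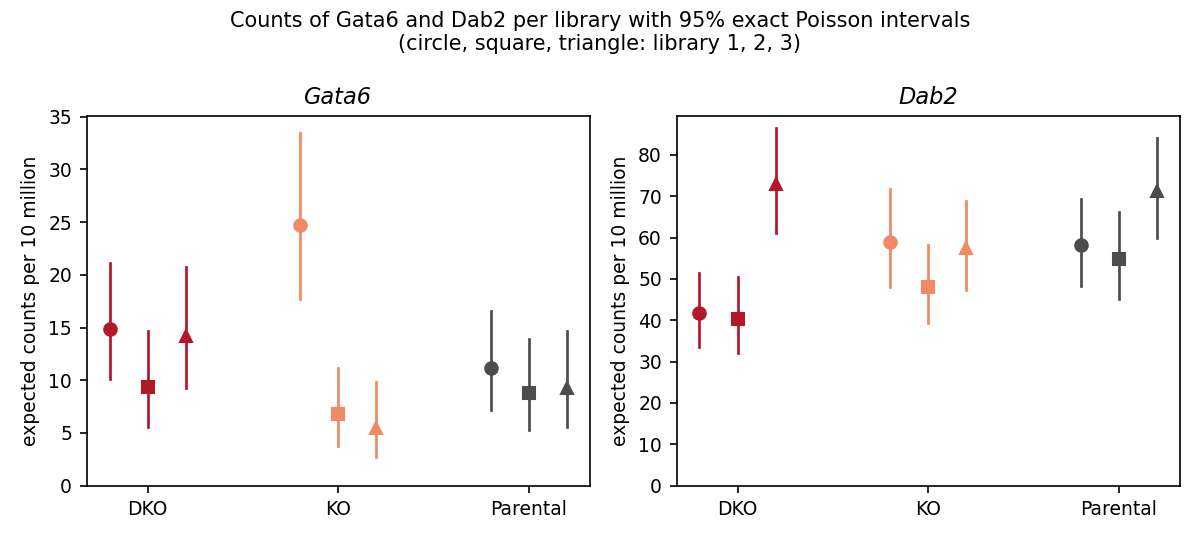
Gata6 and Dab2 expected counts per 10000000 in each library, with bars for the exact 95% Poisson interval, which covers counting error only; DKO stands for Zfp352/Zfp353-DKO and KO for Zfp352-KO. Zfp352-KO library 1 lies above the other Zfp352-KO libraries for Gata6, and Zfp352/Zfp353-DKO library 3 above the other libraries of its genotype for Dab2.

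Deletion of Zfp352 alone was not accompanied by a called change in these genes either. Between Zfp352-KO and Parental cells edgeR called 0 of the 8 tested members, where 7.06% of all tested genes were called (3.43% higher and 3.64% lower), and 0 had an unadjusted p under 0.05 (23.7% of all tested genes). DESeq2 and limma called 0 as well. The members' log2 fold changes ran from -0.52 to 0.26 with a median of -0.05, against -0.01 over all genes, and 3 lay above 0 and 5 below. This comparison and the one of Zfp352/Zfp353-DKO cells share the Parental libraries, so their values are not independent of each other.

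Sox7 had the largest negative difference over all libraries, with 0.357 ± 0.150 TPM in Zfp352-KO cells and 0.490 ± 0.151 TPM in Parental cells (edgeR log2 fold change -0.52 ± 0.40, interval -1.36 to 0.32, adjusted p = 0.47). Amn followed at -0.37 ± 0.37 (edgeR adjusted p = 0.59). Without Zfp352-KO library 3 the values were -0.23 for Sox7 and -0.64 for Amn, and without Parental library 3 they were -0.29 and -0.48. Gata4 (-0.07, interval -0.44 to 0.30), Dab2 (-0.16, -0.54 to 0.22), Pdgfra (-0.03, -0.58 to 0.52), Cubn (0.08, -0.53 to 0.68) and Sox17 (0.02, -0.96 to 1.01) lay nearer to 0. With the trend on transcript length removed the Cubn value was -0.07.

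Gata6 depended on one Zfp352-KO library for its direction. It averaged 0.743 ± 0.657 TPM in Zfp352-KO cells and 0.560 ± 0.0721 TPM in Parental cells, and its edgeR log2 fold change was 0.26 ± 0.42 (interval -0.63 to 1.15, adjusted p = 0.76). Without Zfp352-KO library 1 it was -0.65 (edgeR adjusted p = 0.39). Per 10000000 expected counts, Zfp352-KO library 1 had 24.7 (exact interval 17.7 to 33.5), library 2 had 6.80 (3.81 to 11.2) and library 3 had 5.49 (2.74 to 9.84). By TPM, library 1 was also the highest Zfp352-KO library for Sox7, Sox17, Foxa2 and Pdgfra, while library 3 was the highest for Gata4, Dab2, Amn and Cubn. In expected counts, Zfp352-KO libraries 1, 2 and 3 had 14, 14 and 7 for Sox7, 10, 11 and 9 for Sox17, and 28, 28 and 22 for Pdgfra. Zfp352-KO library 1 had the fewest expected counts of the series (16599004) and the highest rho with transcript length (0.391). Among Parental libraries, library 3 was highest for 6 of the 9 genes and library 2 lowest for 6.

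Between the edited genotypes, edgeR called 0 of the 8 tested members, where 0.105% of all tested genes were called (0.014% higher and 0.0909% lower), 0 had an unadjusted p under 0.05 (6.43% of all tested genes), and DESeq2 and limma called 0. The log2 fold changes of Zfp352/Zfp353-DKO against Zfp352-KO cells ran from -0.09 to 0.45 with a median of 0.19, against 0 over all genes. Gata4 averaged 1.82 ± 0.158 TPM in Zfp352/Zfp353-DKO cells and 1.48 ± 0.240 TPM in Zfp352-KO cells (log2 fold change 0.30 ± 0.17, edgeR adjusted p = 0.85). Sox7 differed by 0.45 ± 0.41 and Cubn by 0.39 ± 0.28, with edgeR adjusted p of 0.94 and 0.91. Without Zfp352/Zfp353-DKO library 3 the Sox7 and Cubn values were 0 and 0.02, and without Zfp352-KO library 1 Gata6 was 1.04 in place of 0.13 (edgeR adjusted p = 0.50).

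**Figure D4:**
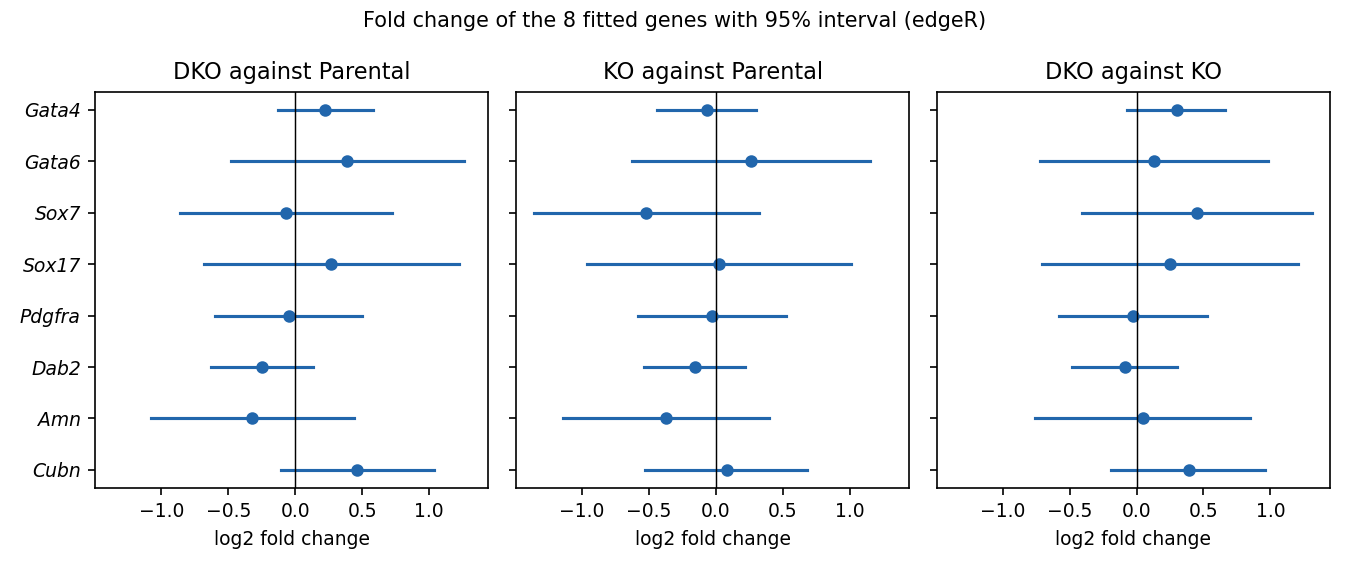
edgeR log2 fold change of the 8 tested members in the 3 comparisons, with bars for the 95% interval; DKO stands for Zfp352/Zfp353-DKO and KO for Zfp352-KO. Every interval crosses 0, and those of Gata4 and Dab2 are the narrowest.

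Genes known from the wider extraembryonic endoderm were examined beside the 9. Of 27 listed, 21 were tested. In Zfp352/Zfp353-DKO cells 2 were called higher and 6 lower than in Parental cells, with a median log2 fold change of -0.06. In Zfp352-KO cells 0 were higher and 3 lower, with a median of -0.12. Over all genes the medians were 0 and -0.01, and the shares called were those given above, 8.47% and 7.06%. The genes called lower in both were Rhox5, an X-linked homeobox gene, Plat, the tissue plasminogen activator secreted by parietal endoderm, and Fst, the activin antagonist follistatin. Plat averaged 1.21 ± 0.259 TPM in Zfp352/Zfp353-DKO, 1.47 ± 0.233 in Zfp352-KO and 2.39 ± 0.0473 in Parental cells (edgeR log2 fold change -1.04 ± 0.19 and -0.75 ± 0.18 against Parental, adjusted p = 0.0019 and 0.021). The Zfp352-KO call of Plat was lost without Zfp352-KO library 1 or 3 or Parental library 1 or 2, and so was that of Fst. Rhox5 averaged 250 ± 15.3 TPM in Zfp352/Zfp353-DKO, 256 ± 4.37 in Zfp352-KO and 308 ± 9.25 in Parental cells (edgeR log2 fold change -0.34 and -0.31, adjusted p = 0.0013 and 0.0037), and its call held in both with any 1 library left out. The other genes called lower in Zfp352/Zfp353-DKO cells were Bmp2, Pth1r and Cited1.

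The 2 genes called higher in Zfp352/Zfp353-DKO cells were Pga5, a pepsinogen gene, and Hnf4a, a nuclear receptor of visceral endoderm, which was named after its values were seen. Hnf4a had 1.96, 2.25 and 2.53 TPM in Zfp352/Zfp353-DKO libraries, 2.14, 1.69 and 1.96 TPM in Zfp352-KO libraries, and 1.28, 1.27 and 1.82 TPM in Parental libraries. The Zfp352/Zfp353-DKO libraries all lay above the Parental ones (edgeR log2 fold change 0.59 ± 0.16, adjusted p = 0.024), and Zfp352-KO was not called (0.36 ± 0.16, adjusted p = 0.17). In counts scaled to library size, 28.1% of all tested genes did not overlap between Zfp352/Zfp353-DKO and Parental libraries. The Hnf4a call was lost without Zfp352/Zfp353-DKO library 2 or 3 or Parental library 1 or 2 (0.50 to 0.58 over these). With single libraries left out, the list's counts in Zfp352/Zfp353-DKO cells ran from 0 higher and 3 lower, without Zfp352/Zfp353-DKO library 2 or without Parental library 1, to 2 higher and 6 lower. In Zfp352-KO cells 1 gene was called lower without Zfp352-KO library 1, Parental library 1 or Parental library 2.

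Basement membrane genes, which primitive endoderm transcribes strongly but ES cells and fibroblasts also express, were called in both directions. Of 11 listed and tested, 4 were higher and 5 lower in Zfp352/Zfp353-DKO than in Parental cells, and 4 were higher and 4 lower in Zfp352-KO cells (medians 0.03 and 0.13). Over all tested genes 3.65% were called higher and 4.82% lower in Zfp352/Zfp353-DKO cells, and 3.43% and 3.64% in Zfp352-KO cells. The collagen IV genes Col4a1 and Col4a2, the collagen chaperone Serpinh1 and the matricellular gene Sparc were lower in both. Sparc averaged 115 ± 2.71 TPM in Zfp352/Zfp353-DKO, 127 ± 4.97 in Zfp352-KO and 153 ± 1.72 in Parental cells (edgeR log2 fold change -0.46 and -0.32, adjusted p = 2.5e-06 and 0.00038). The nidogens Nid1 and Nid2 and the perlecan gene Hspg2 were higher in both, named after their values were seen, with log2 fold changes of 0.22, 0.21 and 0.26 in Zfp352/Zfp353-DKO and 0.22, 0.18 and 0.31 in Zfp352-KO cells. The laminin gene Lama1 was higher in Zfp352/Zfp353-DKO cells (17.1 ± 2.26 against 12.9 ± 1.03 TPM in Parental cells, edgeR log2 fold change 0.37 ± 0.07, adjusted p = 0.0041), while Lamb1 was lower (-0.19 ± 0.05, edgeR adjusted p = 0.038) and Lamc1 was not called (0.03). These laminin genes were also named after their values were seen. The 4 higher calls of Zfp352/Zfp353-DKO cells came to 1 without Parental library 1 and to 2 without Zfp352/Zfp353-DKO library 3 or Parental library 2. Those of Zfp352-KO cells came to 0 without Zfp352-KO library 1, Zfp352-KO library 2, Parental library 1 or Parental library 2, and to 2 once the trend with transcript length was removed, with 5 lower.

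Markers of fibroblast-type cells, which also transcribe Pdgfra, Dab2 and most basement membrane genes, were called in one direction. Of 11 tested, 7 were lower and 0 higher in each edited genotype against Parental. Median log2 fold changes were -0.97 in Zfp352/Zfp353-DKO and -0.62 in Zfp352-KO cells. Over all tested genes 4.82% and 3.64% were called lower, the shares for every list compared with Parental in this paragraph. The markers not called lay on both sides of 0, such as Twist1 (0.24 and 0.04) and Postn (-0.99 and -0.92). The basement membrane list summed to 823 to 921 TPM in Zfp352/Zfp353-DKO, 831 to 966 in Zfp352-KO and 802 to 906 in Parental libraries. That sum joins genes called in both directions, and Fn1 had the highest level in it (means 299, 314 and 262 TPM in the same order). Between the edited genotypes 3 of the 11 fibroblast-type markers were lower in Zfp352/Zfp353-DKO cells, where 0.0909% of all tested genes were called lower. They were Col1a2, Tagln and Acta2 (edgeR adjusted p = 0.015, 0.015 and 0.034), named after their values were seen. Of these markers 0 were called without Zfp352/Zfp353-DKO library 1 or 2 or Zfp352-KO library 3. The summed level of the fibroblast-type markers was 110 to 120 TPM in Zfp352/Zfp353-DKO, 130 to 148 in Zfp352-KO and 210 to 212 in Parental libraries. The defining markers Lum, Dcn and Prrx1 did not pass the filter, and Lum was listed at 0 in every library but Zfp352/Zfp353-DKO library 3. Trophectoderm markers, some of which are general epithelial keratins, summed to 265 to 277 TPM in Zfp352/Zfp353-DKO, 298 to 303 in Zfp352-KO and 403 to 462 in Parental libraries, with 5 of 9 called lower in each edited genotype. Of 7 tested markers of definitive endoderm and mesendoderm, which also expresses Sox17 and Foxa2, T was called lower in both edited genotypes and the other 6 were not called. Of 5 tested primitive streak markers, 2 were called lower in Zfp352/Zfp353-DKO and 3 in Zfp352-KO cells. The part of these markers in the values of the 9 genes and of the lists was not tested.

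The signals that act on primitive endoderm were examined next. Of 13 FGF and PDGF inputs, 1 was higher and 2 were lower in Zfp352/Zfp353-DKO cells, and 1 was higher and 1 lower in Zfp352-KO cells (medians -0.05 and 0.01), where 8.47% and 7.06% of all tested genes were called in either direction. Fgf4, the ligand that epiblast cells send to primitive endoderm, averaged 88.8 ± 2.89 TPM in Zfp352/Zfp353-DKO, 86.4 ± 3.10 in Zfp352-KO and 75.1 ± 4.19 in Parental cells, and the libraries of either edited genotype lay above all Parental ones (edgeR log2 fold change 0.20 ± 0.05 and 0.16 ± 0.05, adjusted p = 0.0085 and 0.044). Such a lack of overlap with Parental held for 28.1% and 27.4% of all tested genes, in counts scaled to library size. Without Parental library 1 neither Fgf4 call held, and the Zfp352-KO call was also lost without Zfp352/Zfp353-DKO library 2, Zfp352-KO library 1 or 2, or Parental library 2. Its receptors Fgfr1 (65.3 ± 1.97, 65.6 ± 2.63 and 62.9 ± 4.00 TPM in Zfp352/Zfp353-DKO, Zfp352-KO and Parental cells) and Fgfr2 (9.17 ± 0.375, 8.94 ± 0.988 and 8.07 ± 0.603 TPM) were not called. Fgfr3, another receptor of the family, was lower in Zfp352/Zfp353-DKO cells (log2 fold change -1.03 ± 0.26, edgeR adjusted p = 0.018), a call lost without Zfp352/Zfp353-DKO library 1 or 2 or Parental library 1 or 3.

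Pdgfa, the main ligand of PDGFRA in the embryo, averaged 35.5 ± 3.16 TPM in Zfp352/Zfp353-DKO, 38.6 ± 1.84 in Zfp352-KO and 34.6 ± 2.16 in Parental cells and was not called. In every genotype the ligand's level per length was thus far above that of its receptor. Pdgfb, which encodes another PDGF ligand, had 3.47, 4.49 and 4.89 TPM in Zfp352/Zfp353-DKO libraries, 3.75, 4.29 and 4.45 TPM in Zfp352-KO libraries, and 6.36, 6.41 and 7.13 TPM in Parental libraries. All edited libraries lay below all Parental ones (edgeR log2 fold change -0.68 ± 0.12 and -0.71 ± 0.12, adjusted p = 0.0012 and 0.0015). Of all tested genes, 28.1% and 27.4% did not overlap with Parental, in counts scaled to library size.

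Of 13 tested partners of the endocytic members, 1 was called in Zfp352/Zfp353-DKO cells, where it was higher, and 0 in Zfp352-KO cells (median -0.03 in both), against 8.47% and 7.06% of all tested genes. That gene was Myo6, the myosin motor that DAB2 binds, with 4.74, 4.84 and 5.51 TPM in Zfp352/Zfp353-DKO libraries and 4.12, 3.62 and 4.31 TPM in Parental libraries (edgeR log2 fold change 0.28 ± 0.08, adjusted p = 0.041). With the trend on transcript length removed the Myo6 value was 0.22 and not called (edgeR adjusted p = 0.069), and the call was also lost without Zfp352/Zfp353-DKO library 2 or 3 or Parental library 1 or 2. Lrp2, which encodes megalin, the receptor that works with cubilin and DAB2, averaged 13.9 ± 1.45 TPM in Zfp352/Zfp353-DKO, 14.8 ± 1.70 in Zfp352-KO and 12.5 ± 0.701 in Parental cells and was not called.

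Among 6 tested relatives and cofactors of the GATA and SOXF members, 1 was called lower in Zfp352/Zfp353-DKO cells, where 4.82% of all tested genes were. List medians were -0.25 there and -0.07 in Zfp352-KO cells. The called gene was Zfpm1, which encodes the GATA cofactor FOG1. It had 7.32, 6.63 and 6.91 TPM in Zfp352/Zfp353-DKO libraries, 7.53, 7.76 and 7.84 TPM in Zfp352-KO libraries, and 9.49, 8.31 and 9.12 TPM in Parental libraries. The edgeR log2 fold change was -0.41 ± 0.08 (adjusted p = 0.0046) in Zfp352/Zfp353-DKO cells and -0.26 ± 0.08 (adjusted p = 0.059, not called) in Zfp352-KO cells. The related GATA genes Gata1, Gata2 and Gata3 were not called, with log2 fold changes between -0.09 and 0.24 against Parental. Larger differences, also not called, were those of Zfpm2 (-0.77 in Zfp352/Zfp353-DKO and -1.09 in Zfp352-KO cells) and Sox18 (-0.48 and -0.66).

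Of 11 naive pluripotency factors, 3 were called higher in Zfp352/Zfp353-DKO cells and 2 in Zfp352-KO cells, and 0 lower in either. The medians were 0.11 and 0.08, and 3.65% and 3.43% of all tested genes were called higher. Tfcp2l1 and Tbx3, which help to maintain self-renewal, were higher in both, by log2 fold changes of 0.37 and 0.30 in each, and Sox2 was called higher in Zfp352/Zfp353-DKO cells. Tbx3 is also expressed in primitive endoderm. Nanog, the epiblast factor that opposes Gata6, averaged 408 ± 21.5 TPM in Zfp352/Zfp353-DKO, 425 ± 4.78 in Zfp352-KO and 404 ± 1.23 in Parental cells and was not called, nor was Pou5f1. Between the edited genotypes 0 genes were called in the extraembryonic endoderm, basement membrane, FGF and PDGF, endocytic, GATA and SOXF, and naive pluripotency lists by edgeR or by DESeq2.

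**Figure D5:**
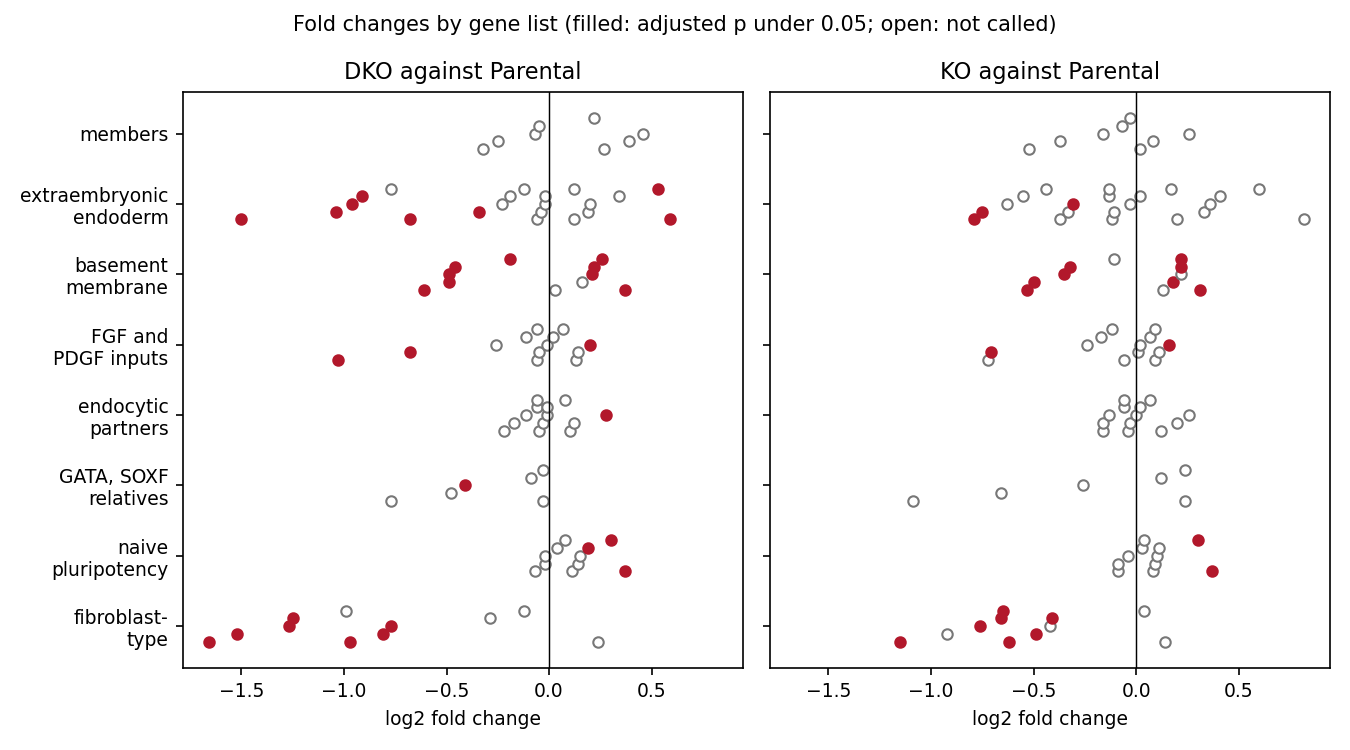
edgeR log2 fold change against Parental of each tested gene, by list, for Zfp352/Zfp353-DKO (DKO) and Zfp352-KO (KO) cells. Shown are the extraembryonic endoderm, basement membrane, FGF and PDGF, endocytic, GATA and SOXF, naive pluripotency and fibroblast-type lists. Filled points are genes called at an adjusted p under 0.05, and the row of members holds the tested primitive endoderm factors. The members have 0 called points among 8 tested, while the basement membrane list has called points on both sides of 0.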

How the data were processed

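The build was mm10 and the tools were RSEM 1.3.3, STAR 2.7.8a and Trim Galore 0.6.6 (per the submitters' processing notes, which give no order). Not given in the sources used here were settings, annotation release and strand use, so reads of overlapping genes at Gata6, Pdgfra, Dab2, Amn and Cubn cannot be told apart. The authors deposited, per the file headers, RSEM's expected count for every gene, which can be fractional, and TPM, scaled for length and depth. FPKM was not used. After rounding, expected counts were tested by the two-sided quasi-likelihood test of edgeR 4.0.16 (R 4.3.3, TMM, filterByExpr), with all 9 libraries in 1 fit by genotype, and 14300 genes passed the filter. Standard errors came from the F statistic. Poisson intervals (95%) cover counting error only. DESeq2 1.42.0, limma 3.58.1, other scalings and filters, a replicate block, removal of the trend with transcript length (local regression, span 0.3) and omission of each library were alternatives. The test was also run on simulated counts with changed genes drawn from all tested genes, which does not give its power for the 9 members. RefSeq matched 24362 of 24411 symbols. Counts of paired libraries of 1 genotype differed beyond sampling noise (chi-square over degrees of freedom 2.50 to 7.06). The members and lists were chosen with earlier results of these data known. Named genes are the 9 members, Zfp352, up to 4 called genes per list with the smallest adjusted p against Parental, and Pdgfa, Lrp2, Fgf4, Fgfr1, Fgfr2, Nanog, Pou5f1 and Sox2, and 1 further gene that is not reported here. Genes outside this rule were named after their values were seen. For each called member the rule also named the genes with the most similar pattern, and with 0 called there were none.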

Additional observations from a re-analysis of the deposited data

How the results depend on the processing

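Of 63 counts of called members under alternatives, 62 stayed at 0, and the exception was 1 (Dab2, lower) between Zfp352/Zfp353-DKO and Parental without Zfp352/Zfp353-DKO library 3, so leaving out single libraries gave 0 to 1. The fit with that exception called 686 genes over the whole table. Counts over all genes moved more. For Zfp352/Zfp353-DKO against Parental (1211 genes), limma gave 578 with log2(TPM + 1) and 570 with log2(TPM + 0.1), and leaving out single libraries gave 449 to 1337. For Zfp352-KO against Parental (1010), limma gave 359 and 352, and leaving out single libraries 210 to 1552. For Zfp352/Zfp353-DKO against Zfp352-KO (15), DESeq2 gave 27, limma 1 with either pseudocount, no filter 66, a fit of the 6 libraries compared 3, removal of the length trend 40, and leaving out single libraries 3 to 21. The cause was not tested. Correlations of same-numbered deviations between genotypes ran from -0.0767 to 0.106, while 6 of 9 libraries correlated best with their own number. Whether replicate numbers pair the libraries is therefore not settled. With a replicate block 0 members were called in each comparison, and genes called between Zfp352-KO and Parental numbered 569. Sox7 and Sox17 did not pass a filter of 1 CPM in 3 libraries. The tested members had 97 to 993 counts each over the 9 libraries, and their intervals take in counting error and the spread between libraries together.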
